A study of Mus musculus with 32 samples.

Results

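Kidneys of 36-week-old NZB/W F1 mice with lupus nephritis were compared with kidneys of 12-week-old mice of the same cross that had no signs of the disease. The comparison took every array whose title gave 36 weeks and diseased/symptomatic or 12 weeks and asymptomatic, which made 14 of the 32 arrays of the series and 7 of its 16 mice. All animals were females of the NZB × NZW F1 cross, a strain that develops lupus-like autoimmunity spontaneously. The 3 diseased mice received no sirolimus, and the 4 asymptomatic mice, also without treatment, were taken before the disease appeared. Each mouse gave 1 RNA sample from a kidney piece with cortex and medulla, and this sample was read on 2 arrays, Mu11KsubA and Mu11KsubB, which carry different probe sets (groups of short probes for 1 transcript) and therefore count together as 1 replicate. For orientation, 3 sirolimus-treated mice at 36 weeks, asymptomatic by their labels, and 3 diseased mice at 42 weeks of the same series are also given below.

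In lupus nephritis, antibodies against nuclear antigens form or deposit as immune complexes in the glomerulus, the filter of the kidney. The complexes activate the classical complement pathway through C1q and engage Fc receptors on macrophages, which draws further leukocytes into the tissue. Lymphocytes and plasma cells gather around vessels and tubules, interferons raise antigen presentation, and the tubules below leaking glomeruli are exposed to protein, lose transport and metabolic functions and in part switch to a repair state. The question of the comparison was which of these processes can be read in the RNA of the whole kidney at 36 weeks.

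Several features of the design limit the model. Diseased and asymptomatic mice differed in age as well as in health, so age and disease cannot be told apart. Cohort identifiers in the labels also differed between the groups, and the arrays of the asymptomatic mice belonged to another number series than those of the other mice, so array series and group cannot be told apart either. The array methods give 12 weeks for the asymptomatic mice, as the labels do, while the description of the treatment study has asymptomatic animals chosen at a later age. The sirolimus-treated mice had been treated under the skin once proteinuria was established. By the paper's pathology methods, kidneys were taken after the course of treatment had ended, while the labels read on treatment. P-values measure only the spread between mice, estimated once for all 16 mice in 5 groups. These include 3 sirolimus-treated mice at 42 weeks.

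Values are MAS5 signals (brightness on a linear scale, with each array scaled to the same mean by the authors). Testing covered the probe sets that came to 50 or more in any of the 16 mice, and a probe set was called where limma's adjusted p was under 0.05 and the fold change was at least 2, that is, 1 on the log2 scale. Signals below 50 were treated as too dim for an exact fold. Where only 1 of both groups had a geometric mean of at least 50, the fold is given as a lower bound, with dim signals set to 50, and where both means were below 50 signals are given with no fold. Median array signals were 40.3 to 44.1 in asymptomatic and 44.3 to 49.2 in diseased mice on array A, and 30.6 to 35.7 against 35.9 to 37.7 on array B. Kidney origin was plain in all 7 mice. Kap, a proximal tubule protein, had signals from 2409 to 4738, and Umod, which encodes uromodulin of the thick ascending limb, had signals from 213 to 301 without a difference between the groups (adjusted p = 0.709). The ratio of 3' to 5' beta-actin control signals, a sign of RNA integrity, was 1.28 to 1.41 in asymptomatic and 1.36 to 1.60 in diseased mice on array A, and 1.18 to 1.5 against 1.37 to 1.76 on array B. That of GAPDH was 0.75 to 0.777 against 0.569 to 0.635 on array A and 0.686 to 0.72 against 0.715 to 0.789 on array B, so it moved in opposite directions on both arrays, and its part in the results was not tested.

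Of 7989 probe sets tested, 862 were called (10.8%), 576 higher in diseased kidneys (7.21%) and 286 lower (3.58%). Counted as genes, with the brightest probe set standing for each of 4188 genes, 207 were higher (4.94%) and 131 lower (3.13%). The median log2 fold change over all probe sets was 0.01. In 2916 of the 7989 probe sets the diseased mice lay wholly above or wholly below the asymptomatic mice. Among the 576 rises, 239 (41.5%) belonged to annotated immunoglobulin probe sets or to a block of array B probe sets with identifiers that begin with ET6 and no gene name in the annotation. Where both groups had mean signals of at least 50, the balance was 164 higher and 177 lower among 5174 probe sets. Where only 1 group reached 50, it was 326 higher and 79 lower among 1116. The diseased mice were less alike than the asymptomatic mice. Correlations of log2 signals between mice were 0.879 to 0.923 in the diseased and 0.948 to 0.964 in the asymptomatic group, and diseased mouse 2 had the lowest values with both of its companions. For that reason counts without this mouse are given beside most gene groups.

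**Figure D1:**
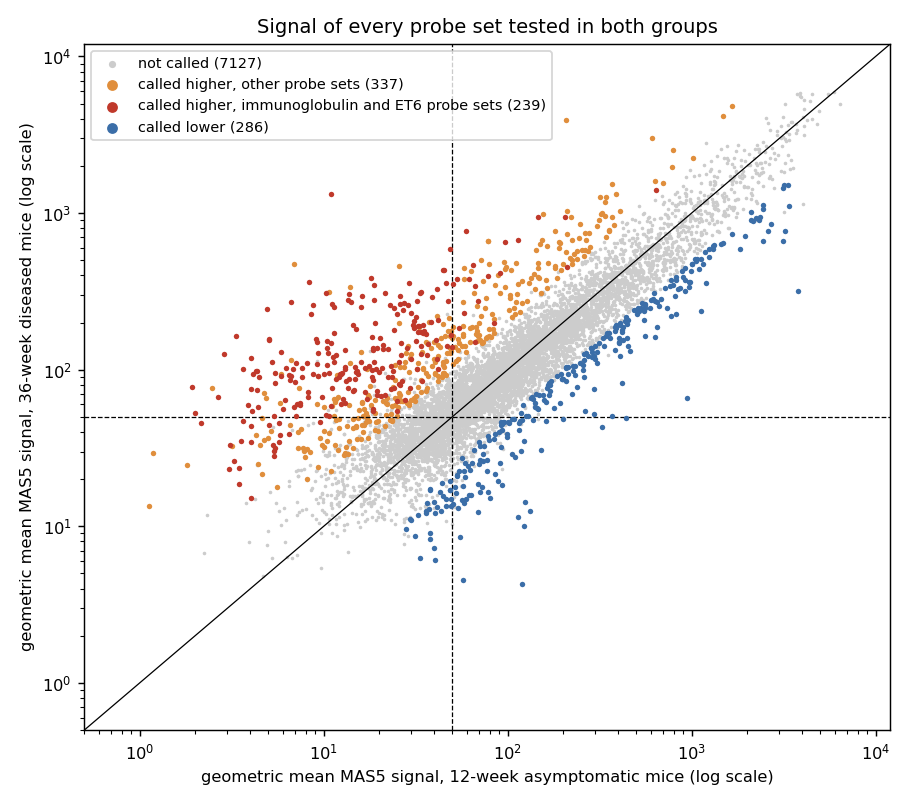
Geometric mean MAS5 signal of each of the 7989 probe sets in 4 asymptomatic mice at 12 weeks (x axis, log scale) and in 3 diseased mice at 36 weeks (y axis, log scale), coloured by call. Dashed lines mark a signal of 50, and the 239 immunoglobulin and ET6 probe sets that were called higher lie mostly to the left of the vertical line, at dim signals in asymptomatic kidneys.

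Genes of the classical complement pathway were among the largest rises. C1q, the molecule that recognises bound antibody, is built of chains from C1qa, C1qb and C1qc, and all 3 rose. C1qa had signals of 68.2, 75.2, 69.1 and 76.1 in asymptomatic mice 1 to 4 and of 363, 537 and 645 in diseased mice 1 to 3. No diseased mouse came near the asymptomatic range, and the log2 fold change was 2.80 (SE 0.57, adjusted p = 0.00491), or 6.95-fold. C1qb rose by 2.35 (SE 0.32) and C1qc by 2.17 (SE 0.30) on the log2 scale. Of the 6 early components measured, these 3 were called and C1ra, C2 and Cfb were not, with log2 fold changes of 0.06, 0.71 and -0.25. Without diseased mouse 2, 3 of the 6 were called too. Among 9 terminal components, regulators and receptors, Itgb2, the beta chain of leukocyte integrins and complement receptors, rose at least 2.60-fold, Cfi, a protease that inactivates C3b, at least 2.56-fold, and properdin (Cfp), which stabilises the alternative convertase, at least 2.04-fold. When diseased mouse 2 was left out only Itgb2 of these was called (Cfi, adjusted p = 0.0556, Cfp, adjusted p = 0.0565), while the Itgb2 call was lost without diseased mouse 3 (adjusted p = 0.052). The Cfp call was also lost without diseased mouse 3 (adjusted p = 0.0976) or asymptomatic mouse 2, 3 or 4, and with the replicate block. C3 and C4, the central substrates of the pathway, have no single gene in the annotation used here, and their probe sets are named only by a table that the study drew from these same samples, so they are not counted in the lists. The C3 probe set had signals of 102 to 214 in asymptomatic and of 812, 1488 and 794 in diseased mice, with a log2 fold change of 2.67 (SE 0.42, adjusted p = 0.00135). The C4 probe set, which the annotation assigns to several genes, moved from 123 to 173 up to 585 to 732 (log2 fold change 2.08, SE 0.27).

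Antigen presentation genes rose with small differences between mice. Class II molecules present extracellular peptides to helper T cells and are normally confined to professional antigen-presenting cells, and 8 of 11 measured class II genes rose, with a median log2 fold change of 1.62 over the list. Cd74, the invariant chain that chaperones class II molecules, had signals of 601, 634, 574 and 628 in asymptomatic mice and of 3320, 3168 and 2595 in diseased mice. The mice of each group lay close together and far from the other group, and the log2 fold change was 2.31 (SE 0.17, adjusted p = 1.59e-05), the smallest adjusted p of the comparison. Cathepsin S (Ctss), which trims the invariant chain, rose by 2.56 (SE 0.36), H2-DMa, which helps peptide loading, by 2.22 (SE 0.29) and the class II chains H2-Ea, H2-Aa, H2-Eb1 and H2-Ab1 by 2.01, 1.89, 1.62 and 1.45 on the log2 scale. A second probe set of H2-Eb1 differed by only 0.19 (adjusted p = 0.57) and 1 of H2-Ea by 0.75 (adjusted p = 0.308), neither called. With diseased mouse 2 left out, 8 of the 11 were called too. The members not called were H2-Oa and H2-Ob, both dim, and Lgmn, a lysosomal protease, at -0.18.

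Class I molecules show peptides from inside the cell to cytotoxic T cells. Of 15 class I genes measured, 8 rose, with a list median of 1.14. H2-K1 had signals of 377, 419, 351 and 332 against 1391, 1750 and 1475, and the groups were far apart (log2 fold change 2.06, SE 0.18, adjusted p = 8.46e-05). The immunoproteasome subunits Psmb8 and Psmb9, which cut peptides for class I, rose by 1.71 (SE 0.31) and 1.13 (SE 0.25), and Psmb10 rose at least 2.13-fold. B2m, the light chain of every class I molecule, went from 1240 to 1732 up to 3763 to 4921, a log2 fold change of 1.5 (SE 0.28). Tap1, the peptide transporter of the endoplasmic reticulum, rose at least 1.24-fold from dim signals of 14.7 to 19.5, and this call was lost without diseased mouse 2 (adjusted p = 0.0737) or mouse 3 (adjusted p = 0.0569). Psme1, a proteasome activator, rose by 1.24 (SE 0.20). After leaving out diseased mouse 2, 6 of the 15 were called.

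Genes that interferons induce were shifted upward as a group but passed the test less uniformly. All 22 measured members had a positive log2 fold change, with a median of 0.98, yet 6 were called. In 16 the diseased mice lay wholly above asymptomatic mice, and 2916 of all 7989 probe sets were separate in either direction. Ly6e, a lymphocyte surface protein induced by interferon, had signals of 738, 753, 700 and 1030 against 1984, 3983 and 2044, with diseased mouse 2 highest (log2 fold change 1.67, SE 0.34, adjusted p = 0.00435). Irf7, the regulator that amplifies type I interferon production, rose at least 2.70-fold, and Irf1, a regulator induced by interferon-gamma, rose from 101 to 112 up to 203 to 244 (log2 fold change 1.03, SE 0.18). Ifi27 rose by 1.14 (SE 0.26), Igtp, a GTPase of the immunity-related family, at least 2.00-fold and Mx2, an antiviral GTPase, at least 1.01-fold. Without diseased mouse 2, 2 of the 22 were called, and Irf7 (adjusted p = 0.0525) and Igtp (adjusted p = 0.12) were not, while Irf1 and Ifi27 fell under the 2-fold limit at 0.95 and 0.93. The Igtp call also failed without any other mouse except asymptomatic mouse 1, and that of Mx2 without diseased mouse 3 or asymptomatic mice 3 or 4. Ifi47, at 2.24 (SE 0.92, adjusted p = 0.102), had a larger difference that the spread between mice did not support.

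The JAK-STAT pathway, through which interferons and IL-6 family cytokines signal, had 3 of 21 members called, all higher, and a median of 0.53. Socs3, a feedback inhibitor that STAT3 induces, had signals of 9.26 to 15.1 in asymptomatic and of 87.5, 123 and 72.1 in diseased mice and rose at least 1.84-fold. Stat3 itself went from 215 to 325 up to 496 to 765 (log2 fold change 1.20, SE 0.19, adjusted p = 0.00149), and its second probe set, at 0.89, was under the fold limit. Ptpn1, a phosphatase that dampens JAK signals, had signals of 69.7, 65.8, 70.7 and 70.4 against 185, 146 and 160, so the asymptomatic mice were nearly equal and the diseased mice clearly above them (1.24, SE 0.16). Jak3, the kinase of the common gamma chain receptors, differed by 0.84 (SE 0.23, adjusted p = 0.0196), below the 2-fold limit, and Il6st, the shared receptor chain of the IL-6 family, by 0.93 (adjusted p = 0.00353). When diseased mouse 2 was left out, 3 of the 21 were called as well.

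Promoter sequences of called members were read from the RefSeq promoter table (GRCm38.p6, 250 bases before to 50 bases after each start site), which held 3347 of the tested genes. The core of the interferon-stimulated response element was searched as GAAA, any 2 bases, GAAA and the interferon-gamma activated site as TTCNNNGAA, each on both strands. The first occurred in 10 of 17 interferon genes of the list with a promoter (58.8%), called or not. These genes were listed because interferons induce them, so motif shares in this list are not a result of the comparison. The response element core was found in 6.29% of genes called higher and 3.6% of genes called lower. It was held by 4.09% of genes tested and 3.99% of all genes with a promoter. The second occurred in 7 of the 17 (41.2%), in 8.18% of genes called higher and 9.01% of genes called lower. It was found in 7.86% of genes tested and 9.55% of all genes with a promoter. Among called members of these lists, Ctss, B2m, Psme1 and Igtp held the response element core and Psmb8, Irf1 and Igtp the activated site. Of these 3 are shown as examples, 1 from each list, with the match in capitals: both elements in Igtp, the interferon-induced gene that held both (the matches do not overlap), and the response element core in Ctss of the class II list and B2m of the class I list. Igtp lies on chromosome 11 (chr11:58199306-58199605, plus strand), Ctss on chromosome 3 (chr3:95526536-95526835, plus strand) and B2m on chromosome 2 (chr2:122147437-122147736, plus strand).
Igtp: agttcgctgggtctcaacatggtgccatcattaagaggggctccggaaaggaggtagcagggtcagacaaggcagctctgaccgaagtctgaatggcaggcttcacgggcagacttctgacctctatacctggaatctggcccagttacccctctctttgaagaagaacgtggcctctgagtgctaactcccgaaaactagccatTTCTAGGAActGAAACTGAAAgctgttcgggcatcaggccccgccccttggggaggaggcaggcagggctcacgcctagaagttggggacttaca
Ctss: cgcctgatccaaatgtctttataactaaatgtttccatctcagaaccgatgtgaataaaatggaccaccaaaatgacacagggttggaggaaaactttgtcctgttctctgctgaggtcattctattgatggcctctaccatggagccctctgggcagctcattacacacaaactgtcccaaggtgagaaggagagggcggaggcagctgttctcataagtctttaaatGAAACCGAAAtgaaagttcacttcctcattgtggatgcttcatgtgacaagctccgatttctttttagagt
B2m: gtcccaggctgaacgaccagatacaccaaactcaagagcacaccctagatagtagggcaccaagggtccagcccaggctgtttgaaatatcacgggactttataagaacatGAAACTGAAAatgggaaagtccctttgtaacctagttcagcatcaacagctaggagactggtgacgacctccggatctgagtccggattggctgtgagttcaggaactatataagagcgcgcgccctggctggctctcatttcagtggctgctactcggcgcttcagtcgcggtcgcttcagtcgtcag
A match is a description of the letters and does not show that a factor was bound in these kidneys.

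Myeloid markers rose in 11 of 17 cases, with a median of 1.74, the highest of the 34 lists. Lyz2, the lysozyme of macrophages and neutrophils, had signals of 209, 186, 261 and 193 against 702, 1063 and 1476. Diseased mouse 3 was highest here, and the log2 fold change was 2.30 (SE 0.34, adjusted p = 0.000993). Fcer1g, the signalling chain shared by activating Fc receptors, rose by 2.10 (SE 0.33), Fcgr3, an Fc receptor for immunoglobulin G, by 1.74 (SE 0.50), Cd14, a receptor for lipopolysaccharide, by 1.5 (SE 0.25) and Lgals3, a lectin of activated macrophages, by 1.10 (SE 0.32). Cd68, a lysosomal protein of macrophages, rose at least 3.23-fold, Mpeg1, a pore-forming protein of macrophages, at least 3.24-fold and Cd52, a leukocyte surface peptide, at least 3.83-fold. A second probe set of Mpeg1 differed by 0.38 (adjusted p = 0.323). Adgre1, which encodes the macrophage antigen F4/80, moved from 5.68 to 16.8 up to 51.7 to 71.1, at least 1.17-fold, and its call was lost without diseased mouse 3 (adjusted p = 0.0596). Csf1r, the receptor for the macrophage growth factor CSF1, was not called (0.28). Cyba, a subunit of the phagocyte oxidase, ran the other way and fell at least 1.77-fold. In bulk tissue, more cells of a type and more RNA per cell cannot be told apart. With diseased mouse 2 left out, 8 of the 17 were called higher and none lower.

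Markers of other leukocytes gave fewer calls. Of 8 neutrophil markers, Lcn2 was the only one called, and it is also made by injured tubules. The granule and surface markers Ngp, Ltf, Elane and Ly6g had means below 50 in both groups. Of 5 T and NK cell markers, Thy1 was called, at least 1.20-fold higher, while Cd3e, part of the T cell receptor complex, was under the fold limit (0.72, adjusted p = 0.0271) and the means of Cd4, Cd247 and Gzma were below 50 in both groups. Rac2, a GTPase of blood cells, went from 149 to 165 up to 497 to 826 (2.12, SE 0.43). No red blood cell marker (0 of 4) and no marker of fat, adrenal gland or skeletal muscle (0 of 10) was called. With 4.94% of all 4188 genes called higher and 3.13% lower, lists this short cannot show equal content of these tissues. The red blood cell level ran from -0.71 to 0.62 among diseased mice. In the other list, 4 of the 10 had means below 50 in both groups.

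Chemokines recruit leukocytes, and adhesion molecules hold them at the vessel wall. Of 15 chemokines and receptors measured, 6 rose and 1 fell. Ccl5, which attracts T cells and monocytes, had signals of 4.57, 6.98, 6.12 and 9.95 against 101, 238 and 62.8, at least 2.30-fold, and Ccl9 signals of 1.36 to 5.02 against 47.8, 99.2 and 95.2, at least 1.53-fold. Ccr2, the receptor that brings monocytes into tissue, rose at least 1.89-fold. Ccl2, its ligand, remained below a mean of 50 in both groups, with signals of 1.24 to 10.9 against 42.4, 62.1 and 45.8. Cxcl12, a chemokine made by stromal and tubular cells, fell by 1.01 (SE 0.34, adjusted p = 0.0483). After leaving out diseased mouse 2, 4 chemokine genes were called higher and none lower. Of 8 adhesion genes, 4 rose, and the same number did so without that mouse. Vcam1, the ligand of integrin alpha4beta1 on endothelium and on activated tubules, had signals of 72.1, 89.3, 55.4 and 45.4 against 429, 631 and 284 (2.74, SE 0.35, adjusted p = 0.000463). Icam1 rose at least 2.24-fold, and Selplg, the selectin ligand of leukocytes, by 1.28 (SE 0.23). Icam2 and Selp, endothelial adhesion genes, were not called at 0.20 and 0.15.

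Cytokine genes were dim. Il1rn, the natural antagonist of the IL-1 receptor, had signals of 2.28 to 4.30 in asymptomatic and of 18.6, 50.6 and 37.4 in diseased mice, and Tnf signals of 8.64 to 33.0 against 30.5 to 57.0, with the groups overlapping. Both were called, as was the decoy receptor Il1r2 (at least 1.31-fold), but with signals raised to 50 before the test none of these 3 calls remained, and without diseased mouse 2 only 1 of the list's 10 members was called. The same raising of signals also ended the calls of Tap1, Mx2, Socs3, Ccl2, Ccl9, Ccr2, Adgre1, Thy1, Pou2af1, Cd79b, Serpina3n, Cp, Atf3, Fos, Mt2, Birc3, Ighv5-12 and the dim Ighm probe set.

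Immunoglobulin transcripts, the product of B and plasma cells, rose strongly. Of 18 annotated immunoglobulin probe sets tested, 14 rose and none fell, and their median log2 fold change was 2.27. The mu heavy chain Ighm, measured by a probe set bright in both groups, had signals of 138, 220, 115 and 128 against 903, 519 and 1798. Diseased mouse 3 was highest and mouse 2 lowest (log2 fold change 2.70, SE 0.54, adjusted p = 0.00429). The alpha heavy chain Igha went from 140 to 345 up to 622 to 1486 (2.20, SE 0.41). Another Ighm probe set had signals of 2.90 to 4.24 against 83.3, 57.8 and 919, at least 3.28-fold. Igkv5-43, a kappa variable segment, rose at least 5.42-fold and Ighv5-12, a heavy chain variable segment, at least 1.29-fold. Ighg2c, a gamma heavy chain, was dim and not called (-0.20, adjusted p = 0.723), and Ighd, the delta chain of naive B cells, was not called (0.48). Variable segments share sequence, so probe sets of this family may detect each other's transcripts. Jchain, which joins IgA and IgM polymers in plasma cells, had signals of 84.3, 53.3, 72.6 and 34.8 against 403, 182 and 756 (2.72, SE 0.57), in the same order of mice as Ighm. Cd72, a B cell co-receptor, rose at least 2.22-fold, Cd79b, part of the B cell receptor, at least 1.23-fold, and Pou2af1, a B cell coactivator, moved from 1.24 to 2.51 up to 13.4 to 46.2, below 50 in both groups. Xbp1, Blk, Pax5 and Ms4a1 of the same list of 8 were not called. Without diseased mouse 2, 4 of the 8 were called, and Cd79b was under the fold limit without mouse 3 (0.91).

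The ET6 probe sets also rose. Of 364 tested, 225 rose and 9 fell, and their median log2 fold change was 2.30. Relative to the asymptomatic mean, the mean log2 signal of the 364 was 1.94, 1.29 and 2.61 in diseased mice 1 to 3, and that of the 18 immunoglobulin probe sets was 2.43, 1.45 and 3.15. Mouse 3 was highest and mouse 2 lowest in both sets. In asymptomatic mice the ET6 level lay between -0.15 and 0.34. Another probe set without a gene name, V00802_f_at, had signals of 343, 202, 235 and 113 against 5195, 2603 and 4572, or 19.1-fold.

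Tubular injury and repair genes rose in 9 of 20 cases, all 20 had positive log2 fold changes, and the list median was 1.28. Lcn2, which encodes the iron-siderophore carrier known as a marker of tubular damage, had signals of 22.4, 30.7, 24.5 and 25.7 against 316, 1061 and 287. Mouse 2 stood far above its companions, and the rise was at least 9.17-fold (adjusted p = 0.00173), the largest bound of any named gene. S100a6, a calcium-binding protein, went from 197 to 252 up to 718 to 1419 (2.10, SE 0.33), though a second probe set differed by only 0.54 (adjusted p = 0.303). Tmsb10, an actin-binding peptide, rose by 2.05 (SE 0.36), Anxa2 by 1.58 (SE 0.37), Hmox1, a haem-degrading stress enzyme, by 1.32 (SE 0.38), Fgg, the fibrinogen gamma chain, at least 2.84-fold, Timp1, an inhibitor of matrix proteases, at least 2.54-fold and Krt20, a keratin, at least 2.75-fold. Clusterin (Clu) differed by 1.24 but was not called (adjusted p = 0.0616), its signals in diseased mice being 3118, 4746 and 1516. Outside the lists, Aoc1, a diamine oxidase, rose at least 3.96-fold. When diseased mouse 2 was left out, 8 of the 20 were called. Among acute phase genes 3 of 8 rose: Lcn2, Serpina3n, a serine protease inhibitor (at least 1.71-fold), and ceruloplasmin (Cp, 1.53, SE 0.52, adjusted p = 0.0498), whose call was lost without any mouse other than diseased mouse 3. Leaving out diseased mouse 2 left 2 of the 8 called.

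Immediate early and stress genes, which are switched on within minutes by many stimuli, tissue handling included, rose in 7 of 26 cases, and in 2 of 26 without diseased mouse 2. Atf3, a stress-induced factor, had signals of 3.42 to 9.93 against 50.8, 102 and 43.7, at least 1.22-fold. Fos, a part of the AP-1 factor, went from 2.84 to 6.86 up to 29.1 to 49.0, below 50 in every mouse. Hspb1, a small heat shock protein, rose by 1.49 (SE 0.40) and the metallothionein Mt2 by 1.77 (SE 0.58), and both were highest in mouse 2 and were not called without it. The Mt2 call was lost without any 1 of the 7 mice. The heat shock genes Hspa1a, Hspa5 and Hsp90aa1 were not called, at -0.25, 0.12 and -0.03. Whether the handling of the tissue differed between the groups was not tested.

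Genes of the extracellular matrix and its remodelling rose in 14 of 40 cases and fell in 1. Col3a1, a fibrillar collagen, had signals of 266, 245, 181 and 164 against 551, 1136 and 620 (1.80, SE 0.44, adjusted p = 0.0114). Col1a1 rose by 1.63 (SE 0.32) and the basement membrane chains Col4a1 and Col4a2 by 1.17 and 1.16. Acta2 and Tagln, contractile genes of myofibroblasts and smooth muscle, rose by 1.12 (SE 0.31) and 1.39 (SE 0.26), Sparc by 1.27 and Bgn, the proteoglycan biglycan, by 1.15. Tgfbi, a matrix protein induced by TGF-beta, rose at least 2.86-fold and the TGF-beta and YAP target Ccn2 by 1.42 (SE 0.32). Timp3, the matrix-bound inhibitor of metalloproteases, fell by 1.06 on the log2 scale, from signals of 1830 to 2410 down to 873 to 1295. Mouse 2 held the highest signals of Col1a1, Col3a1, Col4a1, Acta2 and Ccn2. Without it 7 of the 40 were called higher, and Col3a1 (1.48, adjusted p = 0.0604) was not.

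**Figure D2:**
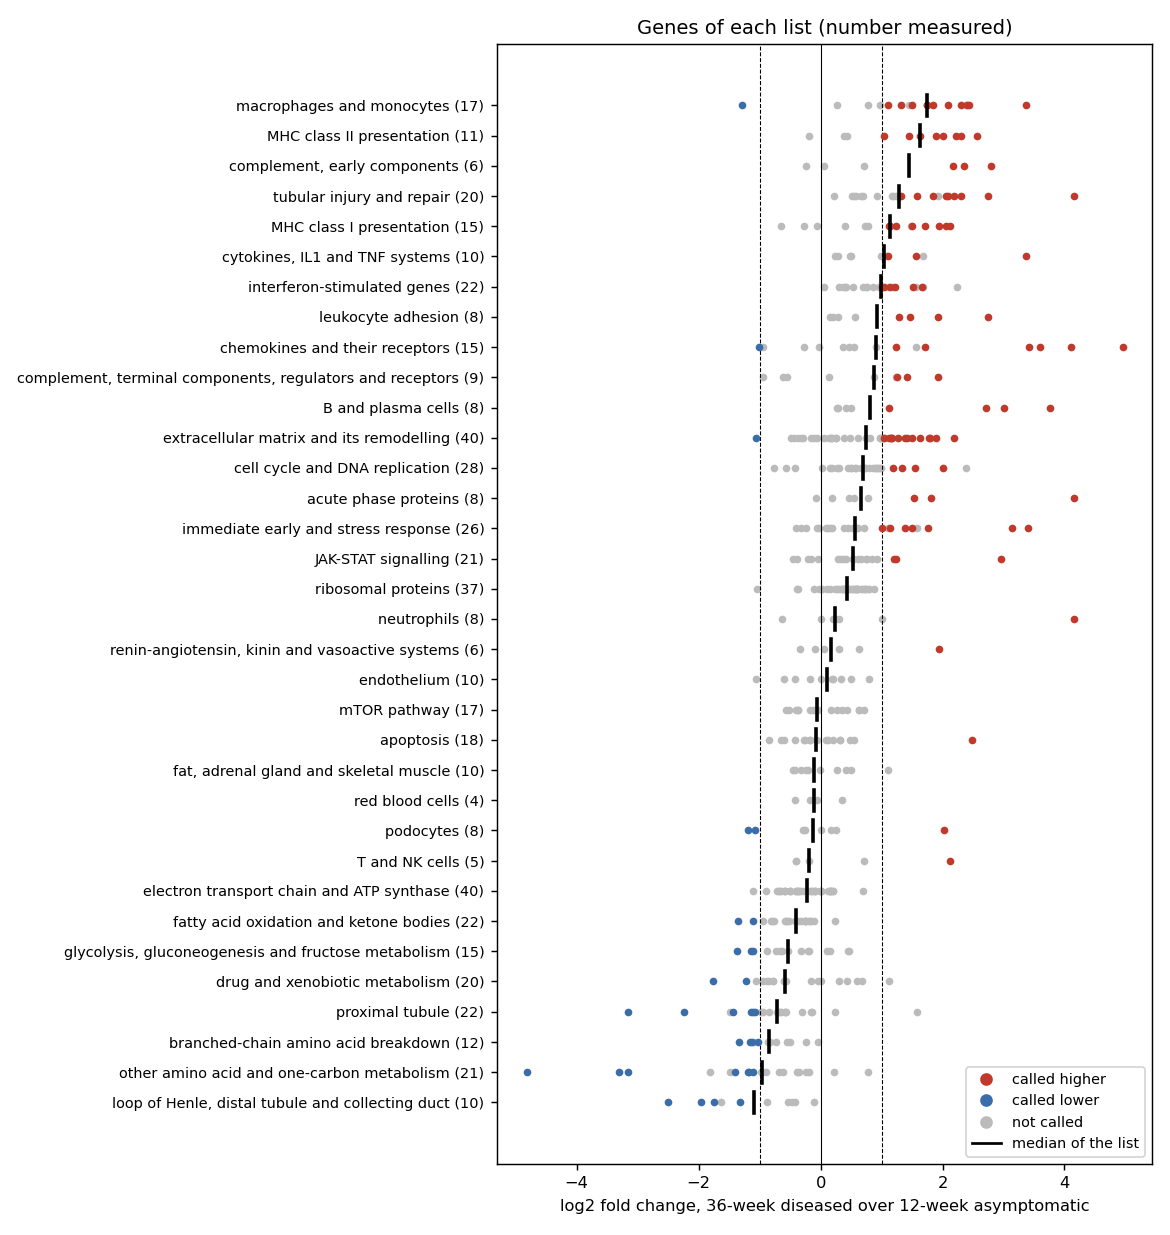
Log2 fold change of every measured gene in 34 gene lists, diseased at 36 weeks over asymptomatic at 12 weeks (x axis), 1 line per list with the number of genes measured, ordered by the list median (black bar). Macrophage and monocyte markers have the highest median (1.74) and distal nephron markers the lowest (-1.10). Dashed lines mark the 2-fold limit for a call.

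Tubular markers moved in the opposite direction. Of 22 proximal tubule genes, 6 fell, none rose and 20 had negative log2 fold changes, with a median of -0.71. Mep1b, a brush border metalloprotease, had signals of 1316, 1095, 978 and 1135 against 430, 98.9 and 314. Mouse 2 had lost the most, and the log2 fold change was -2.25 (SE 0.66, adjusted p = 0.0273). Aqp1, the water channel of proximal tubule and thin limb, fell from 1713 to 2422 down to 1017, 434 and 835 (-1.44, SE 0.27). Hpd, an enzyme of tyrosine breakdown, had signals of 450, 440, 384 and 492 against 157, 7.02 and 108, a fall of at least 4.65-fold. The Hpd call was lost in limma with only the groups compared (adjusted p = 0.0522) or with the replicate block (adjusted p = 0.054). It was also lost by the variance test of the methods (adjusted p = 0.132). Cubn, a receptor for filtered protein, fell by 1.08 (SE 0.25), and the gluconeogenic enzymes Fbp1 and G6pc fell by 1.12 and 1.15. Slc34a1, the phosphate cotransporter that defines the segment, had lower signals in every diseased mouse (1526 to 2812 against 2929 to 3849) but was not called (-0.67, adjusted p = 0.12). Glucose transporter Slc2a2, at -0.99 (adjusted p = 0.000905), missed the fold limit only. With diseased mouse 2 left out, 2 of the 22 were called, and Mep1b (adjusted p = 0.138), Fbp1 (adjusted p = 0.133) and G6pc (adjusted p = 0.175) were not, while Cubn fell under the 2-fold limit at -0.93. The calls of Fbp1 and G6pc also failed without any 1 of the 4 asymptomatic mice. That of Mep1b failed without asymptomatic mouse 1, 2 or 4. By the variance test of the methods the G6pc call was lost too (adjusted p = 0.186). Probe sets that only the study's own table names as PCK1, the rate-limiting enzyme of gluconeogenesis, were lower by 1.61 to 2.24 on the log2 scale in 4 probe sets. That table holds only probe sets chosen because they differed between diseased and asymptomatic mice of these samples, so the direction is not independent evidence.

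The letters GTTAAT, any base, ATT, a site of hepatocyte nuclear factor 1, which drives many tubular genes, were searched in the same promoter windows. They were found in 4 of 111 genes called lower (3.6%) and 1 of 159 called higher (0.629%). Over genes tested the share was 0.299%, and over all genes with a promoter 0.47%. The 4 were G6pc, the insulin-like growth factor binding protein Igfbp1, the proline dehydrogenase Prodh2 and Pkhd1, the gene of recessive polycystic kidney disease, and the last 3 were chosen for naming after this count was seen. Their log2 fold changes were -1.15 for G6pc, -1.14 for Igfbp1, and -1.04 for Prodh2, Pkhd1 fell at least 1.18-fold, and 2 further Igfbp1 probe sets, at -0.07 and -0.15, were not called. The G6pc window on chromosome 11 (chr11:101367466-101367765, plus strand) is shown as the called proximal tubule gene with this match, in capitals.
G6pc: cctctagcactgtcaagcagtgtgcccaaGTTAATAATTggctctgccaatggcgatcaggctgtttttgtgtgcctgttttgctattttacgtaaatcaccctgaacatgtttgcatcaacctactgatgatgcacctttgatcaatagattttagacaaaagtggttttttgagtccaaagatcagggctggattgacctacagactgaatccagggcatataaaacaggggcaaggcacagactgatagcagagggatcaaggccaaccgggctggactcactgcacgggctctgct

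The distal nephron had the lowest list median, -1.10 over 10 genes, with 4 called lower and none higher. In 9 of 10 the diseased mice lay wholly below asymptomatic mice. Over all probe sets, 2916 of 7989 were wholly apart in either direction. Aqp4, the basolateral water channel of the collecting duct, had signals of 321, 269, 289 and 296 against 70.0, 29.3 and 68.1 (-2.50, SE 0.55, adjusted p = 0.00665), and its second probe set fell by 2.05. Calb1, the calcium-binding protein of the distal convoluted tubule and connecting tubule, fell from 498 to 606 down to 125 to 209 (-1.76, SE 0.33). Pvalb, which marks the early distal convoluted tubule, had signals of 520, 616, 680 and 731 against 352, 74.4 and 164 (-1.96, SE 0.51). Slc12a3, the thiazide-sensitive sodium chloride cotransporter of the same segment, fell by 1.32 (SE 0.26). Egf, secreted by the distal tubule, had signals of 1556, 597 and 1129 in diseased mice against at least 2844 in asymptomatic mice and was just not called (-1.64, adjusted p = 0.0528). After leaving out diseased mouse 2, 3 of the 10 were called, and Pvalb (adjusted p = 0.0819) was not.

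Glomerular and vessel markers were mixed. Of 8 podocyte genes, Wt1, the transcription factor of podocytes, fell by 1.08 (SE 0.22, adjusted p = 0.0042), its call being lost without diseased mouse 3 (-0.98) or asymptomatic mouse 1 (-0.95), Vegfa, which podocytes and tubules secrete to maintain capillaries, fell by 1.19 (SE 0.27), and Nes, an intermediate filament protein, rose at least 2.24-fold. Synpo, Actn4 and Cdkn1c were not called, at 0.26, -0.29 and -0.26. None of 10 endothelial markers was called, with a median of 0.10, and Pecam1 was dim in both groups. The shares over all 4188 genes were 4.94% called higher and 3.13% lower.

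Several large falls concerned genes outside the nephron segment lists. Alb, the albumin gene, had signals of 560, 226, 91.4 and 1585 in asymptomatic and of 55.0, 27.4 and 86.3 in diseased mice, a log2 fold change of -2.86 (SE 0.75, adjusted p = 0.0163). The asymptomatic mice spanned a wide range, the lowest lay just above the highest diseased mouse, and the call was lost without diseased mouse 2 (adjusted p = 0.0755). Fmo1, a flavin monooxygenase, fell from 2411 to 2789 down to 1443, 332 and 937 (-1.76, SE 0.37). Slc5a6, the sodium-dependent vitamin transporter, fell by 1.80 (SE 0.44), Id4, an inhibitor of basic helix-loop-helix factors, by 1.83 (SE 0.27), Lpl, lipoprotein lipase, by 1.64 (SE 0.49) and Nnt, the mitochondrial transhydrogenase, by 1.54 (SE 0.29). Slc5a6 and Lpl were not called without diseased mouse 2 (adjusted p = 0.0591 and 0.141). The Lpl call was also lost without asymptomatic mouse 1, 2 or 3, with the replicate block and by the variance test of the methods. Serpina6, the corticosteroid-binding globulin, went from 109 to 135 down to 5.83 to 25.1, at least 2.45-fold, and the insulin-responsive glucose transporter Slc2a4 fell at least 2.38-fold. Papss2, which makes the sulfate donor of the cell, fell by 1.62 (SE 0.34), and Ly6f fell at least 2.63-fold. Probe sets named only by the study's table as DNASE1, the secreted nuclease that clears extracellular DNA, had signals of 3234, 3958, 3816 and 4265 against 847, 95.6 and 396, a 12.0-fold fall, and of 754 to 1144 against 19.0 to 173. The probe set that the annotation names Dnase1 was dim and not called (-1.06, adjusted p = 0.0548). A probe set named REN2, a renin gene, fell by 2.35 (SE 0.73, adjusted p = 0.0356), a call lost without every mouse except diseased mouse 1.

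**Figure D3:**
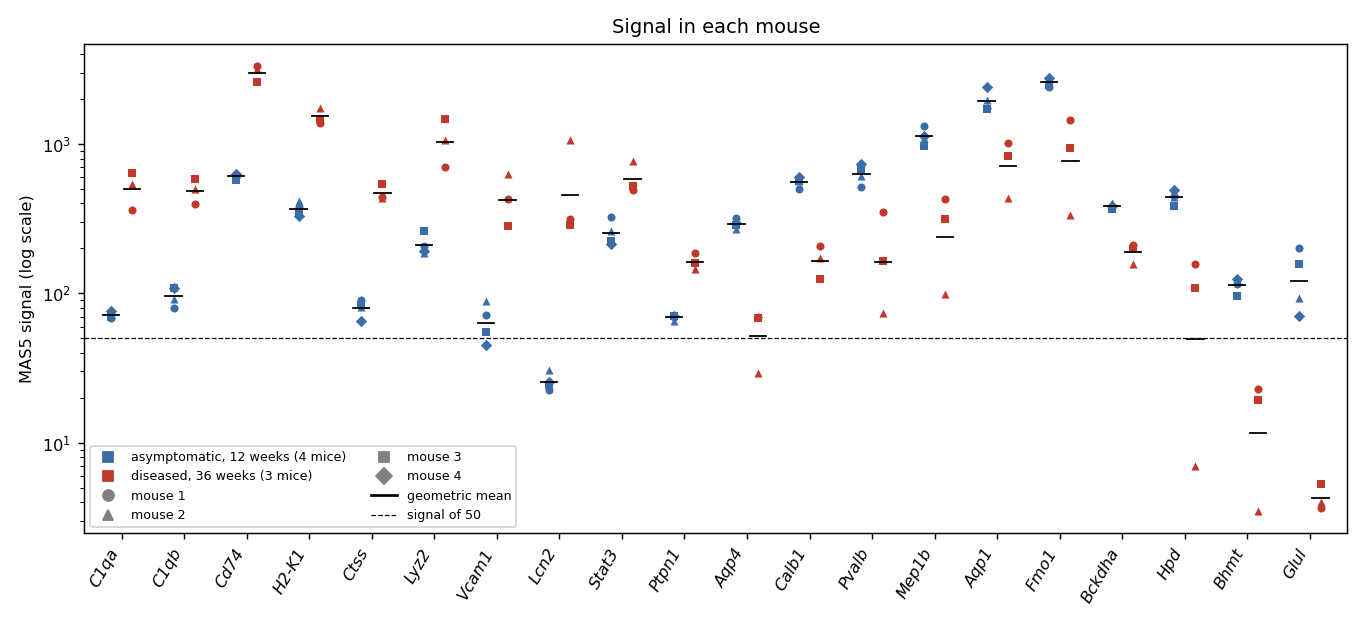
MAS5 signal (y axis, log scale) of 20 genes in each of the 7 mice, with the symbol giving the mouse number and the black bar the geometric mean of the group. Red points of the left 10 genes lie wholly above the blue points, those of the right 10 genes wholly below, and diseased mouse 2 (red triangle) is the lowest of all in 8 of these 10, the exceptions being Calb1 and Glul.

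Genes of amino acid metabolism fell alongside the tubular markers, and those of other metabolic lists less so. Of 12 genes of branched-chain amino acid breakdown none had a positive log2 fold change, the median was -0.85 and 4 fell. Bckdha, a subunit of the rate-limiting dehydrogenase, had signals of 380, 404, 365 and 386 against 211, 158 and 199 (-1.03, SE 0.17, adjusted p = 0.00161). Mmut, the methylmalonyl-CoA mutase, fell by 1.34 (SE 0.30) and Mccc1, of leucine breakdown, by 1.16 (SE 0.23). Auh, of the same pathway, fell by 1.13, but its 2 other probe sets differed by 0.15 and 0.19 in the opposite direction (adjusted p = 0.678 and 0.726). Dbt, another subunit of the dehydrogenase, was below 50 in both groups and not called (adjusted p = 0.0654). Without diseased mouse 2 only Mmut of these was called, since Bckdha, Mccc1 and Auh came to -0.90, -0.93 and -0.92, under the fold limit, with adjusted p-values of 0.00655, 0.0198 and 0.0112.

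Other amino acid and one-carbon genes fell in 7 of 21 cases, with a median of -0.97. Glul, glutamine synthetase, had signals of 201, 93.6, 157 and 70.7 against 3.65, 4.00 and 5.29, a fall of at least 2.41-fold (adjusted p = 0.000343). Bhmt, which remethylates homocysteine with betaine, fell at least 2.28-fold, Ahcy, the S-adenosylhomocysteine hydrolase, by 1.41 (SE 0.26) while its 2 other probe sets, at -0.94 and -0.87, were under the fold limit, Hgd and Gstz1, of tyrosine breakdown, by 1.20 and 1.10 and the ornithine aminotransferase Oat by 1.18. Ass1, the argininosuccinate synthase that lets the kidney make arginine, was at 2298, 353 and 1876 against 3415 to 4395 and was just not called (-1.81, adjusted p = 0.0528). When diseased mouse 2 was left out, 5 of the 21 were called lower. In the fatty acid oxidation list 2 of 22 fell, Acat1 by 1.35 (SE 0.31) and Acadm, the medium-chain dehydrogenase, by 1.12 (SE 0.28), with 21 of 22 negative, and Acadm was not called without mouse 2 (adjusted p = 0.0668). In the list of glycolysis, gluconeogenesis and fructose metabolism 3 of 15 fell, Pdha1 of the pyruvate dehydrogenase (-1.36, SE 0.19) besides Fbp1 and G6pc, and 1 of 15 was called without diseased mouse 2. Fmo1 and the glutathione transferase Gsta3 were the 2 falls among 20 genes of drug metabolism, and the Gsta3 call was lost without diseased mouse 2 (adjusted p = 0.126) or 3 (adjusted p = 0.11), without asymptomatic mouse 2, 3 or 4 and by the variance test of the methods. Leaving out 1 mouse gave 1 to 4 falls in this list, and the other settings 0 to 4. None of 40 genes of the electron transport chain and ATP synthase was called (median -0.22), where 3.13% of all 4188 genes were called lower.

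Further lists had few or no calls. None of 17 mTOR pathway genes, the pathway that sirolimus inhibits, was called, and their median was -0.06. Over all 4188 genes, 4.94% were called higher and 3.13% lower, so lists of this size would hold few calls. Activity of the pathway was not measured. Among 18 apoptosis genes only Birc3, an inhibitor of apoptosis below 50 in both groups, was called, and not without diseased mouse 2. Of 28 cell cycle genes 4 rose, among them Cdk1, the mitotic kinase, at least 2.36-fold and Mki67, the proliferation marker, at least 2.03-fold, the list median was 0.70, and 16 of the 28 had diseased mice wholly above asymptomatic mice. Cdkn1a, the cell cycle inhibitor p21, overlapped between the groups (0.67, adjusted p = 0.141). Its second probe set had mean signals of 30.85 in asymptomatic and 72.54 in diseased mice and was not called either (adjusted p = 0.06435). Ribosomal protein genes gave no call in 37, although 26 had diseased mice wholly above asymptomatic mice. Such separation was common, in either direction, at 2916 of all 7989 probe sets tested. The median of the ribosomal list was 0.43 and the largest rise in level, 0.88, was that of Rps15a.

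The 3 diseased mice did not rank alike across these gene groups. Diseased mouse 2 lay furthest from the asymptomatic mean for 94 of the 131 genes called lower (71.8%) and for 111 of the 207 called higher (53.6%). It had the highest injury level (2.11 on the log2 scale against 1.30 and 1.09 in mice 1 and 3) and the lowest proximal tubule level (-1.28 against -0.58 and -0.56), and it also had the lowest immunoglobulin level. Diseased mouse 3 was furthest for 60.4% of all 576 probe sets called higher. Macrophage and class II levels differed little among the 3, at 1.43, 1.53 and 1.70 and at 1.42, 1.33 and 1.54. These mice were of the same age and label, and with 3 animals no relation between the groups of genes was tested.

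**Figure D4:**
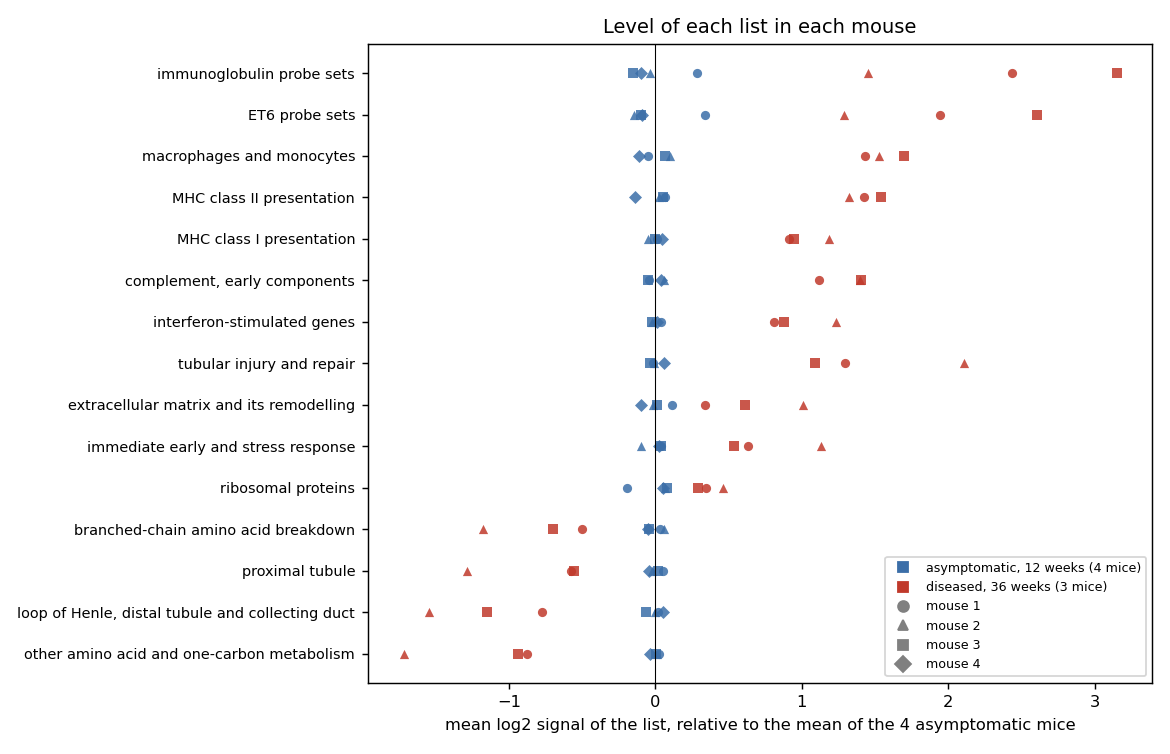
Mean log2 signal of the genes of each list in each mouse, relative to the mean of the 4 asymptomatic mice (x axis), for 13 lists and for the immunoglobulin and ET6 probe sets. Asymptomatic mice cluster at 0, and diseased mouse 2 (red triangle) is lowest for immunoglobulins (1.45) and for proximal tubule genes (-1.28) and highest for injury genes (2.11).

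For the same genes, sirolimus-treated mice of the same age were tested directly against the 3 diseased mice. This comparison shares the diseased mice with the main one, so its calls are not independent of it. Of 7989 probe sets 395 were called (4.94%), 294 lower with sirolimus (3.68%) and 101 higher (1.26%). Among class I genes 8 of 15 were lower, among class II genes 7 of 11, among myeloid markers 10 of 17, among matrix genes 15 of 40 and among injury genes 8 of 20. Cd74 had a mean signal of 609 in asymptomatic, 3011 in diseased and 478 in sirolimus-treated mice, and treated mice were 2.66 lower than diseased mice on the log2 scale (SE 0.18, adjusted p = 6.09e-06). C1qa had 72.1, 501 and 33.7, and Col3a1 had 210, 730 and 70.2. In the proximal tubule list 4 of 22 genes were higher in treated mice, and in the amino acid list 5 of 21. In the distal nephron list 1 of 10 was higher, and none of 12 in branched-chain amino acid breakdown, whose mean level was -0.37 (SD 0.10) with treatment and -0.79 (SD 0.35) in diseased mice, and none of 22 in fatty acid oxidation. None of 10 cytokine genes and 1 of 8 B and plasma cell genes was lower. The level of the neutrophil list was 0.47 (SD 0.14) with treatment and 0.69 (SD 0.05) in diseased mice. Hpd had mean signals of 440, 49.2 and 886 in the order asymptomatic, diseased and treated (difference from diseased 4.17, SE 0.89, adjusted p = 0.0141). Of 18 immunoglobulin probe sets 6 were lower in treated mice, and their mean log2 level over the asymptomatic mean was 0.80 (SD 0.39) with treatment and 2.34 (SD 0.86) in diseased mice.

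Between diseased mice at 42 and at 36 weeks limma called no probe set (0 of 7989, 0.0%), with 503 at an unadjusted p under 0.05 and also 0 by the variance test of the methods. Without the 42-week diseased mouse 2, 31 were called. The 36-week mice enter this comparison too. Col3a1 had 210 in asymptomatic, 730 in 36-week and 253 in 42-week diseased mice (42 over 36 weeks -1.53, adjusted p = 0.633), Col1a2 had 76.6, 285 and 69.5 (-2.04, adjusted p = 0.619) and Ccl5 had 6.64, 115 and 23.6. Gldc, of the glycine cleavage system, had 258, 89.7 and 347 (1.95, adjusted p = 0.324). H2-DMa had 57.5, 269 and 235 and Aqp4 had 293, 51.9 and 31.5.

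**Figure D5:**
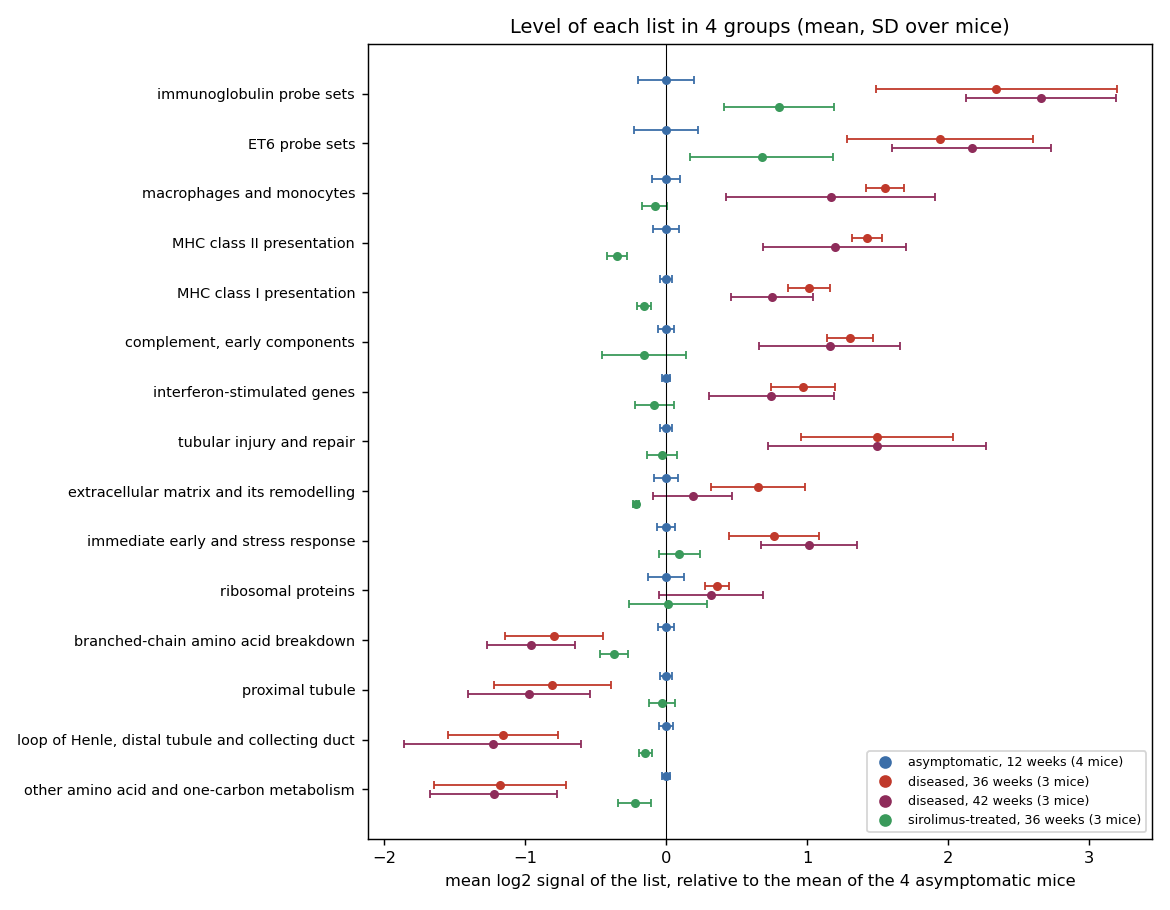
Mean log2 signal of each list relative to the mean of the asymptomatic mice (x axis), as the mean and SD over the mice of 4 groups. Injury genes stand at 1.5 in both diseased groups and at -0.03 in sirolimus-treated mice, and the matrix list at 0.65 at 36 weeks, 0.19 at 42 weeks and -0.21 with sirolimus.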

How the data were processed

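Kidney RNA of 16 female NZB/W F1 mice was hybridised by the authors to Mu11KsubA and Mu11KsubB arrays, 32 in all, and 7 mice enter the main comparison. The deposited values are MAS5 signal intensities on a linear scale, 1 column per array, named as MAS5 in the submitters' processing notes, while the scaling target and the software version are not given in the sources used here. The 2% trimmed mean of the arrays compared was 99.95 to 99.99. The number of mice limits the precision. Control probe sets (122) were left out, and of the other 13057 the platform annotation, which can be old, names 1 gene for 7538, several for 224 and none for 5295. No other probe sets were named, except those credited in the text to the study's own table.

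Log2 signals were tested with limma 3.58.1 in R 4.3.3, in 1 model of 5 groups over all 16 mice with Benjamini-Hochberg adjustment, for the 7989 probe sets that came to 50 or more in any mouse. Simulated data for the main comparison had 7989 probe sets, 100 changed 2-fold and 100 changed 4-fold, with the same spread in all groups. At an adjusted p under 0.05, without the fold limit that a call needs, 48% of 2-fold and 87% of 4-fold changes passed. Of all that passed, 4.9% were unchanged. Recovery under the full call rule or with a wider spread in diseased mice was not tested. Figures and summaries were made with Python 3.11.15. Named were the 12 largest rises and falls with both groups at 50 or above, the 8 largest bounds, up to 6 members per list and the genes the study names, and the genes named outside this rule are values quoted for lists, other probe sets or promoters. Gene lists, members and tests were chosen with earlier results of these data known. Genes were represented by their brightest probe set. Settings tried were the fold limit, the filter, signals raised to 50, quantile and median scaling, a mean-variance trend, the groups in the fit, the variance test of the methods, a replicate block and leaving out each mouse. One further setting, leaving the 42-week diseased mouse 1 out of the spread, was chosen after seeing the data. Same-numbered mice of the 2 main groups did not deviate together (correlations of 0.029, 0.050 and -0.039), so they were not paired.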

Additional observations from a re-analysis of the deposited data

Results flagged for a closer look

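Among the 4 asymptomatic mice, 9 of 166 values had 1 mouse far from the other 3, measured as its gap to the nearest mouse over the whole range of the group, above the 95% critical value of Dixon's test. Chance alone gives about 1 such value in 20. The ratio was 0.861 for Rac2, 0.906 for Slc2a4, 0.873 for Cfp, 0.937 for Psmb10 and 0.86 for Rrm2. For the mean levels of gene lists it was 0.869 in immediate early and stress genes, 0.849 in the electron transport chain, 0.911 in ribosomal proteins and 0.88 in the ET6 probe sets. Asymptomatic mouse 1 was the high value for Slc2a4 (166 against 108 to 113), and asymptomatic mouse 2 the low value for Psmb10 (10.6 against 31.2 to 33.6).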

How the results depend on the processing

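The count of 862 probe sets called between diseased and asymptomatic kidneys became 1511 at a 1.5-fold limit and 1716 with no fold limit. It was 489 with signals below 50 raised to 50 and 529 by the variance test of the methods. The balance of 576 higher and 286 lower became 534 and 379 with median centring. With quantile normalization it was 474 and 323. Leaving out 1 mouse gave 643 (without diseased mouse 2) to 921 calls (without diseased mouse 1), and the replicate block, which pairs mice by number although they did not deviate together, gave 736. For sirolimus-treated against diseased mice the 395 calls became 593 with no fold limit, 169 with only the groups compared, 239 with the replicate block and 20 by the variance test, and 215 (without sirolimus-treated mouse 3) to 372 when 1 of the mice compared was left out. Leaving the 42-week diseased mouse 1 out of the spread, a setting chosen after seeing the data, gave 486 there and 888 in the main comparison. For 42 against 36 weeks the count of 0 became 0 to 31 when 1 mouse was left out, 31 without the 42-week diseased mouse 2. Causes were not tested. With only the groups compared in the fit, the calls of Alb, Hpd, Il1r2, Tnf and G6pc were lost. Of 126 named calls 84 were kept without each of the 7 mice and 60 of these under every other setting too, 37 were lost without diseased mouse 2, 30 with signals raised to 50, 34 by the variance test and 18 with the replicate block, and none of 2318 values of named genes changed sign. Medians of lists near 0 were not stable in sign. Those of T and NK cells (-0.44 to 0.72), red blood cells (-0.44 to 0.20), fat, adrenal gland and muscle (-0.37 to 0.08), apoptosis (-0.21 to 0.04) and mTOR (-0.14 to 0.03) crossed 0 across settings, as did those of endothelium with median centring (-0.0) and of the renin and vasoactive list with a signal of 50 required in every mouse of 1 group (-0.147). Probe sets below 50 limit what can be said of dim genes such as cytokines.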
